A study of Oryza sativa with 3 samples.

Results

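The miRNA families miR168 and miR162 were followed in rice embryos through the first 24 h of imbibition. All mature sequences of the deposited table of known miRNAs whose family entry is miR168 or miR162 were taken, each counted once. The rule found 2 of the 289 miRNAs, osa-miR168a and osa-miR162b, which is 1 mature sequence with 1 precursor for each family. De-hulled seeds of Oryza sativa cultivar Nipponbare were imbibed in water at 30°C in the dark, and the embryos were dissected at 0, 12 and 24 HAI (hours after imbibition). The 0 HAI sample is the dry seed. No hormone or other agent was given in these samples, and each library was made from the mixed RNA of 4 plates with 50 seeds each. With 1 library per time point no difference between these libraries has a replicate among them, and every test below compares 2 libraries and not 2 conditions. The libraries hold whole embryos, in which fewer cells of a type and less miRNA per cell cannot be told apart.

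Both miRNAs act on the pathway that makes and uses miRNAs. DICER-LIKE1 (DCL1) cuts the hairpin precursors of plant miRNAs, and ARGONAUTE1 (AGO1) binds the mature strand and cleaves or represses the paired mRNA. In Arabidopsis, miR168 guides cleavage of the AGO1 mRNA itself and miR162 guides cleavage of the DCL1 mRNA, so that each forms a feedback loop with a protein of the pathway. Their sites in the AGO1-type and DCL1 mRNAs are conserved in rice. The mRNAs of AGO1 and DCL1 were not measured in these libraries.

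The mature sequences are shown because the counts below rest on them, with the seed (bases 2 to 8 from the 5′ end) in capitals and T in place of U as deposited.
osa-miR168a: tCGCTTGGtgcagatcgggac
osa-miR162b: tCGATAAGcctctgcatccag
Both are 21 nt long and start with T, which is U in the RNA and the 5′ base that AGO1 prefers. They share their first 3 bases, and 6 of the 21 positions are identical when they are aligned from the 5′ end. No other miRNA in the tables has the seed of either. The closest other miRNA differs from osa-miR168a at 8 positions and from osa-miR162b at 7 positions in an alignment without gaps, so a sequence listed elsewhere in the tables was not a near copy. Rice has further genes of both families, and the study matched reads to miRBase with up to 2 mismatches, so that reads of close family members may stand in the listed counts.

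The 2 listed precursors are shown with the mature miRNA in capitals, because the miRNAs lie on opposite arms.
osa-MIR168a: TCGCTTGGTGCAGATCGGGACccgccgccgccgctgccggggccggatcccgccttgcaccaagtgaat
osa-MIR162b: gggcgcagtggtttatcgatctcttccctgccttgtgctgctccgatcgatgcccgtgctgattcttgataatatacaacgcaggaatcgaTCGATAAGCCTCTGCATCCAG
The hairpin osa-MIR168a lies at chr2:1553162-1553230 on the minus strand of MSU 7.0, in an exon by the deposited annotation, and its mature sequence covers chr2:1553210-1553230. The hairpin osa-MIR162b lies at chr4:24405911-24406022 on the plus strand, also in an exon, and its mature sequence covers chr4:24406002-24406022. No other position listed in the tables was within 10 kb of either hairpin, and no miRNA* was listed for either. The osa-MIR168a precursor is 69 nt long and is shorter than 69 of the 83 precursors of known miRNAs, while osa-MIR162b has 112 nt and 22 were longer. The G+C content was 71.0% in osa-MIR168a and 51.8% in osa-MIR162b, beside a median of 49.5%, and only 1 known precursor exceeded osa-MIR168a. Folding gave a single hairpin loop for each. In osa-MIR168a 18 of the 21 mature bases were paired, with bases 48 to 67 of the precursor, and in osa-MIR162b 17 of 21 were paired, with bases 1 to 19. The deposited minimum folding free energy (MFE) was -43.8 kcal/mol for both precursors although their lengths differ, and RNAfold gave -43.3 kcal/mol for osa-MIR168a and -44.1 kcal/mol for osa-MIR162b. The MFE index, which divides the MFE by length and G+C content, was 0.894 for osa-MIR168a and 0.755 for osa-MIR162b, and only 1 known precursor had a lower index than osa-MIR162b.

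**Figure D1:**
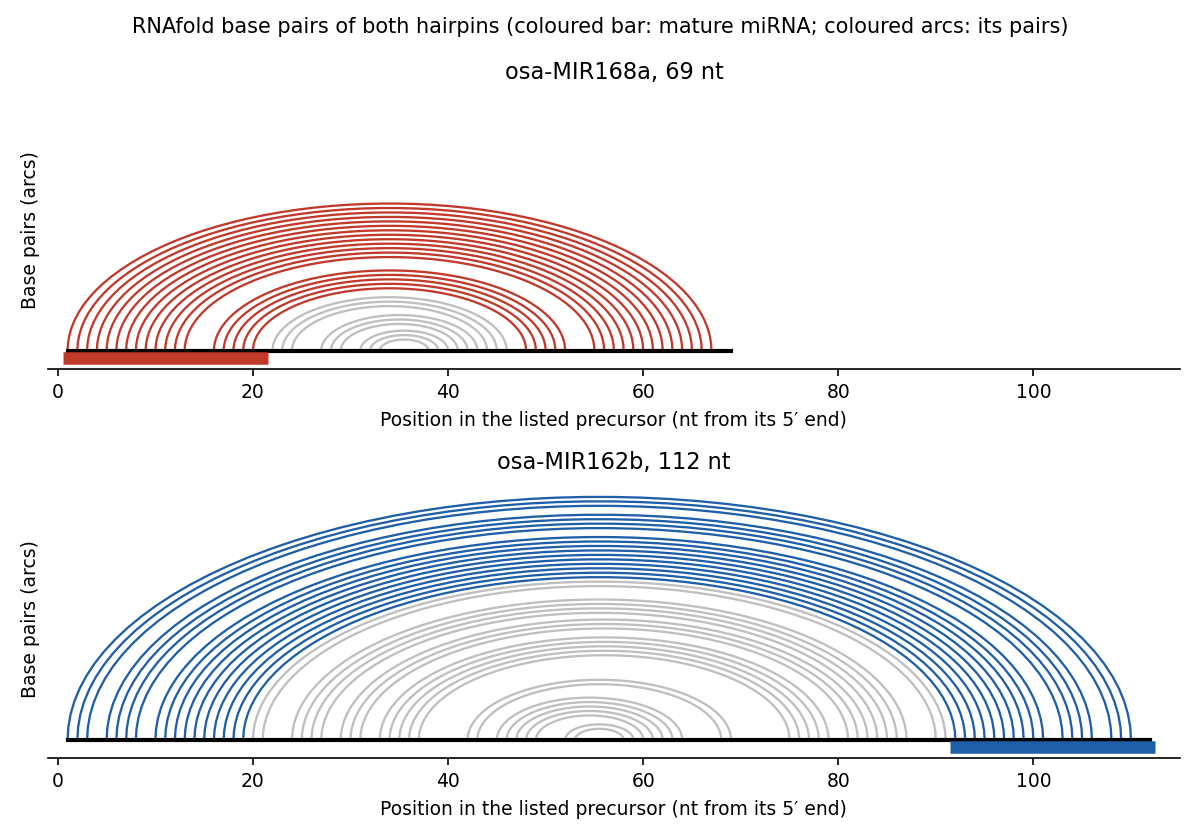
Base pairs of the precursors osa-MIR168a (69 nt, top) and osa-MIR162b (112 nt, bottom) as folded by RNAfold, with the position in nt on the horizontal axis and 1 arc per base pair. The coloured bar marks the mature miRNA, at bases 1 to 21 of osa-MIR168a and 92 to 112 of osa-MIR162b, and coloured arcs are pairs of mature bases.

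The authors deposited the reads of each miRNA in each library and the same reads as TPM, which here are reads per 1000000 genome-mapped reads of the library. Genome-mapped reads ranged from 17359816 to 22332607 and the reads of all 289 miRNAs from 285143 to 634097 per library. A single read corresponded to 0.0448–0.0576 TPM, so the counting error of reads was small for both members. All intervals cover counting error only, since no time point has a replicate library, and they treat every read as independent. The PCR-amplified reads were not described as carrying molecular identifiers. Whether copies of the same molecule were read more than once was not tested. The limits and p-values do not allow for such copies, so the limits may be too narrow and the p-values too small.

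The abundant member, osa-miR168a, increased at each step of imbibition on every scale used. It was read 25313 times in the dry seed, 80512 times after 12 h and 102284 times after 24 h. These are 1318 TPM (95% Poisson limits 1302–1334), 3605 TPM (3580–3630) and 5892 TPM (5856–5928). The limits of the 3 libraries were far apart. In TPM, osa-miR168a reached 2.74 times its dry seed level after 12 h (exact 95% limits 2.70–2.77) and 4.47 times after 24 h (4.41–4.53). The 24 HAI level was 1.63 times the 12 HAI level (1.62–1.65). An exact binomial test, conditional on the reads of both libraries and adjusted by the method of Benjamini and Hochberg over all miRNAs, called all 3 increases, with adjusted p-values too small to be stored, which were written as 0. An increase in TPM was common in these libraries, as the same test called 48.6% of the miRNAs higher and 0.694% lower at 12 than at 0 HAI, and 52.9% higher and 1.73% lower at 24 than at 0 HAI. Between 12 and 24 HAI only 20.1% were called higher, and 8.3% were called lower.

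The scarcer member, osa-miR162b, had its highest TPM at 12 HAI. It was read 672 times in the dry seed, 1154 times after 12 h and 802 times after 24 h. These are 35.0 TPM (95% Poisson limits 32.4–37.7), 51.7 TPM (48.7–54.7) and 46.2 TPM (43.1–49.5). The limits at 12 and 24 HAI overlapped, and both lay above those at 0 HAI. The 12 HAI level was 1.48 times that of the dry seed (exact 95% limits 1.34–1.63, adjusted p = 1.99e-15 in the exact test) and the 24 HAI level 1.32 times (1.19–1.46, adjusted p = 3.84e-07). At 24 HAI it was 0.894 of its value at 12 HAI (0.816–0.979), a difference that was not called (adjusted p = 0.0513 in the exact test). The unadjusted p of this exact test was 0.0147, so the call depends on the set of miRNAs over which it is adjusted. Both comparisons with 0 HAI use the same dry seed library.

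By the rule of the study, a miRNA whose lowest TPM is under 0.5 of its maximum is differentially expressed. The lowest value of osa-miR168a, at 0 HAI, was 0.224 of its maximum and met the rule. That of osa-miR162b was 0.677 of its maximum and did not. The rule was met by 61.6% of all miRNAs. With shares in place of TPM the lowest value of osa-miR168a was 0.512 of its maximum, which does not meet the rule.

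As a share of all miRNA reads the members moved in opposite directions. The reads of osa-miR168a made up 8.88% in the dry seed (95% interval by Wilson's method 8.77–8.98%), 12.7% after 12 h (12.6–12.8%) and 17.3% after 24 h (17.2–17.4%). Those of osa-miR162b made up 0.236% (0.219–0.254%), 0.182% (0.172–0.193%) and 0.136% (0.127–0.146%) in the same order. None of the intervals of a member overlapped. The share of osa-miR168a at 24 HAI was 1.95 times that at 0 HAI (exact 95% limits 1.93–1.98), and the test on shares called 16.3% of all miRNAs higher in this pair. The share of osa-miR162b at 24 HAI fell to 0.577 of that at 0 HAI (0.520–0.640, adjusted p = 2.74e-24 in the exact test), where 20.8% of all miRNAs were called lower. Both steps were called for both members. From 0 to 12 HAI the share of osa-miR168a rose 1.43-fold, where 12.2% were called higher, and that of osa-miR162b fell to 0.772, where 10.8% were called lower (adjusted p = 1.05e-06 in the exact test). From 12 to 24 HAI the share of osa-miR168a rose 1.36-fold, where 12.1% were called higher, and that of osa-miR162b fell to 0.747, where 18% were called lower (adjusted p = 1.29e-09 in the exact test). A share that fell at both steps was the most frequent course among the 141 miRNAs read 100 times or more in all libraries together, with 64 of them, while 27 rose at both steps.

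**Figure D2:**
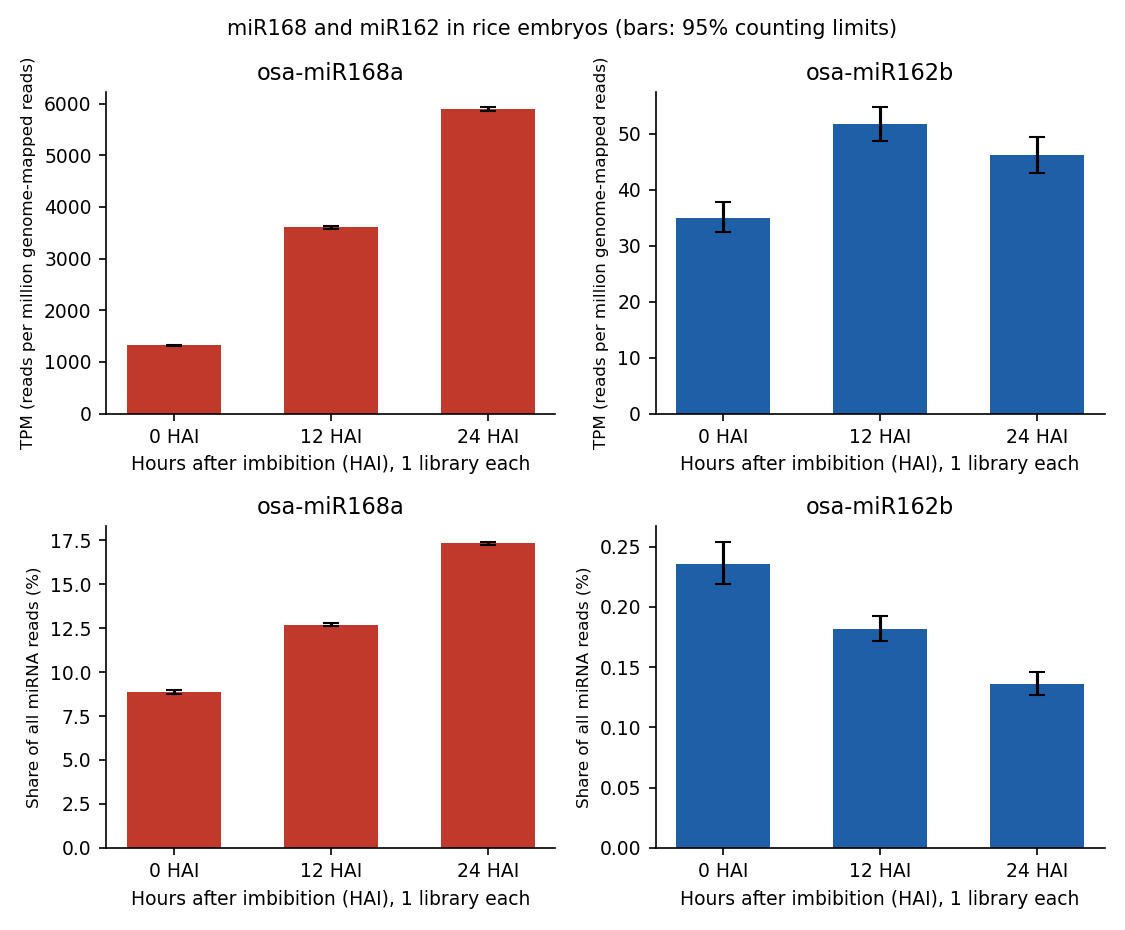
TPM (top) and share of all miRNA reads in percent (bottom) of osa-miR168a (left) and osa-miR162b (right) at 0, 12 and 24 HAI, with 1 library per bar and 95% counting limits (Poisson for TPM, Wilson for shares). The miR168 bars rise at each step on both scales and reach 5892 TPM, whereas the miR162 bars are highest at 51.7 TPM at 12 HAI and fall as a share, to 0.136% at 24 HAI.

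The balance between the 2 miRNAs was compared without any library total, as reads of osa-miR168a per read of osa-miR162b. There were 37.7 such reads in the dry seed (exact 95% limits 34.9–40.7), 69.8 after 12 h (65.8–74.0) and 128 after 24 h (119–137). The balance shifted towards the AGO1 regulator by similar factors at both steps. It was 1.85-fold higher at 12 than at 0 HAI (limits 1.68–2.04, p = 5.45e-34 in Fisher's exact test), 1.83-fold higher at 24 than at 12 HAI (1.67–2.00, p = 1.06e-39) and 3.39-fold higher at 24 than at 0 HAI (3.05–3.76, p = 2.23e-108). Adjustment over these 3 pairs left each p under 0.05.

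The direction of osa-miR162b depended on what the reads were divided by. The median miRNA was 0.96 higher at 24 than at 0 HAI as a log2 ratio of TPM, and -0.24 as a log2 ratio of shares. Relative to this median, the log2 ratio of osa-miR168a was 1.20 above and that of osa-miR162b was at -0.56. These differences are the same on both scales by arithmetic, since a library total shifts all log2 ratios of a pair equally. Under TMM factors of edgeR the log2 ratio of 24 to 0 HAI was 1.16 for osa-miR168a and -0.60 for osa-miR162b, and under size factors of DESeq2 it was 1.17 and -0.59. Thus osa-miR162b was higher at 24 and at 12 HAI than at 0 HAI in TPM, and lower under all 5 scalings based on the miRNA reads. The increase of osa-miR168a kept its direction and its call under each of these scalings. No spike-in was described, and whether the total of miRNAs per embryo changed was not tested.

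**Figure D3:**
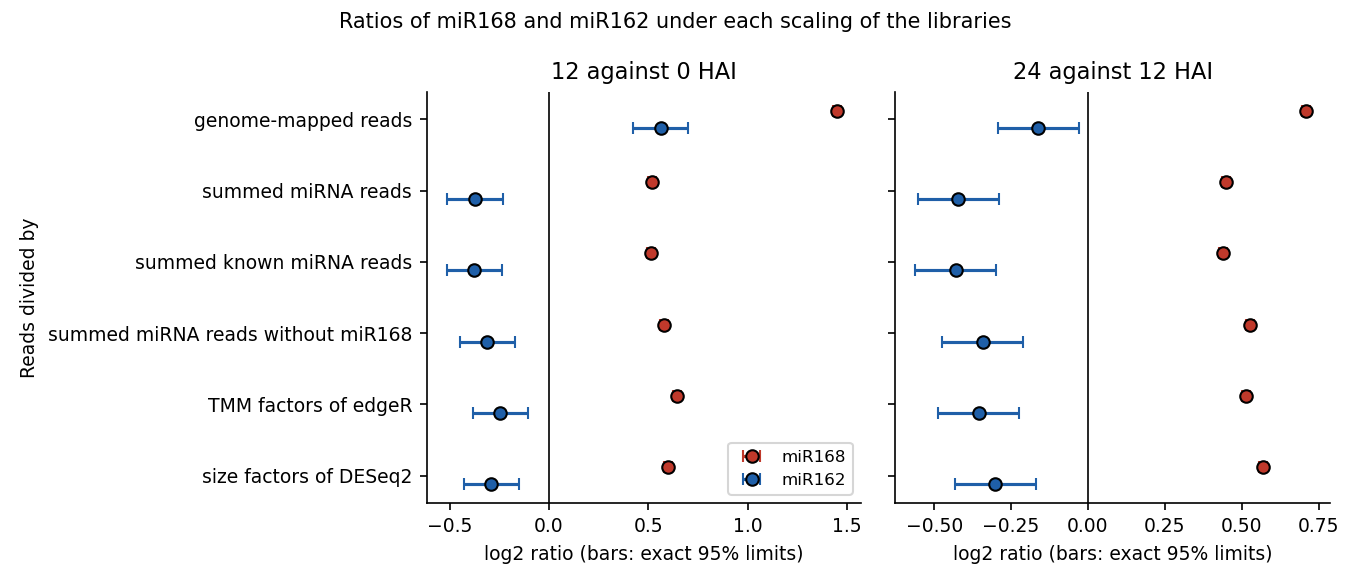
Log2 ratio of 12 to 0 HAI (left) and of 24 to 12 HAI (right) for miR168 and miR162 under each divisor of the reads, with exact 95% limits and the line at 0 for no difference. All miR168 points lie above 0, while miR162 lies above 0 only for 12 against 0 HAI with genome-mapped reads, at a log2 ratio of 0.56.

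The reads of each of the 17 families with a mature sequence in the highly conserved class of the deposited table were summed. Among these families miR162 had the lowest ratio of 24 to 0 HAI, and miR168 lay in the upper part. All 17 were higher in TPM at 24 than at 0 HAI, with a median ratio of 2.53, while as a share of miRNA reads 10 were higher and 7 lower, with a median ratio of 1.11. The ratio of miR168 ranked 6 and that of miR162 ranked 17. Single sequences within a family differed. In TPM osa-miR396b had a ratio of 0.995 (limits 0.893–1.11), below that of osa-miR162b, while osa-miR396a had 4.42. Among all 289 single miRNAs the ratio of osa-miR162b ranked 234 and that of osa-miR168a ranked 42. Among the 141 with at least 100 reads these ranks were 119 and 26. In the single steps miR162 was not the lowest of the families, with rank 15 both for 12 against 0 HAI and for 24 against 12 HAI. In these steps miR168 ranked 4 and 5. The families below miR162 at 12 against 0 HAI were miR396, at 1.29, and miR395. The ratio of miR395, 0.573, rests on 3 reads set in place of 0 at 0 HAI. At 24 against 0 HAI the families above miR168 were miR1432, miR395, miR169, miR393 and miR827, which had between 0 and 126 reads at 0 HAI. In this pair miR168 had the largest ratio among the 5 families with the most reads at 0 HAI. The ratio of miR162 was closest to that of miR167, a regulator of auxin response factors, at 1.51 (limits 1.46–1.55), and to that of miR164, a regulator of NAC genes, at 1.60 (1.02–2.52). Set against each other family by the odds ratio of their reads, which needs no library total, miR168 gained more than 11 of 15 families from 0 to 24 HAI and less than 2, with 2 undecided at 95% limits. In the same comparison miR162 gained less than 14 of 15 families, and the limits against miR164 included 1. These are sums over sequences, and the sum of miR396 rose although its sequence osa-miR396b went from 717 to 645 reads. The single steps were less uniform for miR162. At 12 against 0 HAI it gained less than 10 of 15 families and more than miR396 (odds ratio 1.15, limits 1.01–1.29), with 4 undecided. At 24 against 12 HAI its odds ratio was below 1 for 12 of 16 families and above 1 for miR160 (1.34, limits 1.13–1.58), with 3 undecided. The family miR395 had no read at 0 HAI and was left out of the odds ratios with that library. These limits were not adjusted for the number of families, and all comparisons of a member in a pair of libraries share its reads.

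**Figure D4:**
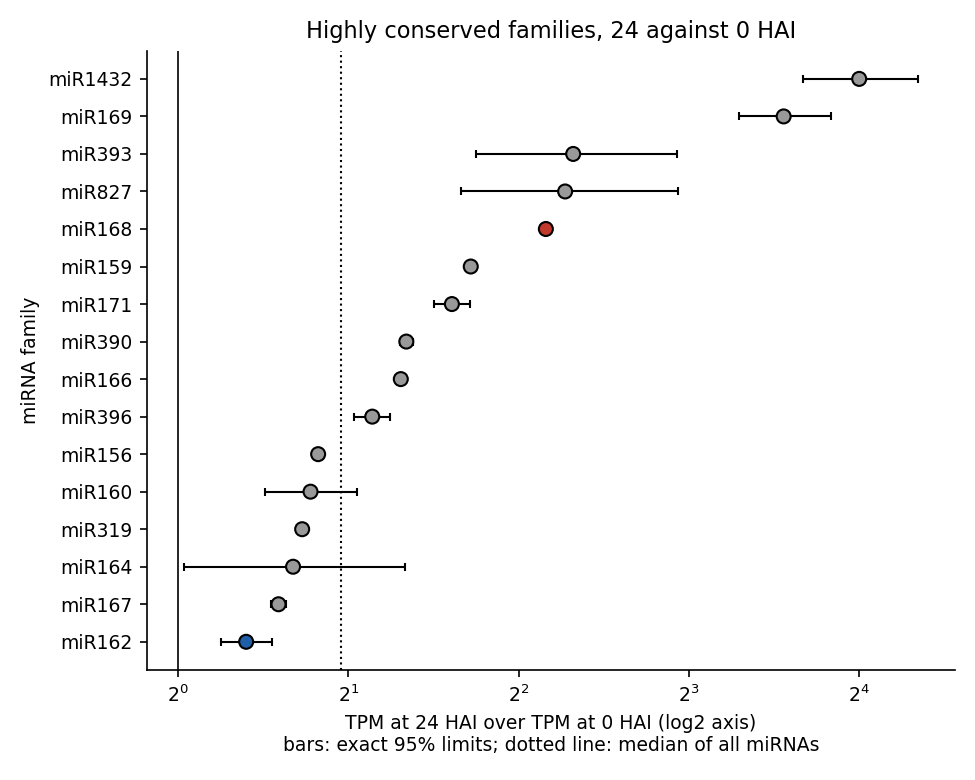
Ratio of TPM at 24 HAI to TPM at 0 HAI on a log2 axis for the highly conserved families, with exact 95% limits, the solid line at 1 and the dotted line at the median of all miRNAs. Of the families drawn, miR162 has the lowest ratio, 1.32, and miR168, at 4.47, lies above miR159, miR166, miR156 and miR319, and miR395, with no read at 0 HAI, is not drawn.

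Part of the rise in miRNA reads belonged to osa-miR168a. All miRNAs together had 14848 TPM in the dry seed, 28393 TPM after 12 h and 33999 TPM after 24 h. From 0 to 24 HAI osa-miR168a gained 4574 TPM (95% limits 4534–4613), the largest gain of any miRNA and 23.9% of the summed difference. It gained 2287 TPM from 0 to 12 HAI (2257–2317) and 2287 TPM from 12 to 24 HAI (2243–2331), so that the steps were equal within counting error. Its gain ranked 2 of all miRNAs in the first step, where osa-miR159b gained more, and 1 in the second. The TPM of osa-miR159b was 1696, 4362 and 5617 at 0, 12 and 24 HAI. The summed gain was smaller in the second step, where it was 5605 TPM against 13545 TPM in the first, and the part of osa-miR168a was 40.8% in the second and 16.9% in the first. Without osa-miR168a, the TPM of all other miRNAs together was 2.08 times as high at 24 as at 0 HAI, against 2.29 times with it. By contrast, osa-miR162b gained 11.2 TPM from 0 to 24 HAI (7.05–15.4), or 0.0585% of the summed difference, with 16.7 TPM gained in the first step (12.7–20.7) and a difference of -5.47 TPM in the second (-9.85 to -1.10). This gain holds in TPM only, since the ratio of osa-miR162b at 24 to 0 HAI was between 0.571 and 0.664 under the 5 scalings based on miRNA reads.

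In the order of single sequences by reads, osa-miR168a moved up and osa-miR162b moved down. Whether different sequences were ligated and amplified equally was not tested. The order and the ratios between sequences are therefore those of reads, and their limits cover counting only. By reads, osa-miR168a was number 5 of all miRNAs at 0 HAI, number 3 at 12 HAI and number 1 at 24 HAI. Among the known families, whose reads are summed over their sequences, miR168 was number 4 at 0 and 12 HAI and number 3 at 24 HAI, when miR159 had 133853 reads and miR156 had 123157. The family rank of miR162 was 17, 18 and 21 at 0, 12 and 24 HAI. At 24 HAI osa-miR168a had 1.05 times the reads of the next, osa-miR159b (limits 1.04–1.06), which regulates GAMYB genes. At 12 HAI the 80512 reads of osa-miR168a could not be told from the 80489 of osa-miR156dj, a regulator of SPL genes (limits of the ratio 0.991–1.01). The ranks of osa-miR162b were 26, 32 and 35 at 0, 12 and 24 HAI. Its neighbours differed little from it, and only osa-miR1432, the next below at 12 HAI with 1052 reads, had limits of the ratio that left out 1 (1.01–1.19). Above it stood osa-miR171i with 710 reads at 0 HAI, OsmiR-175 with 1156 at 12 HAI and OsmiR-86 with 814 at 24 HAI. Below it stood OsmiR-95 with 666 reads at 0 HAI and OsmiR-136 with 729 at 24 HAI.

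**Figure D5:**
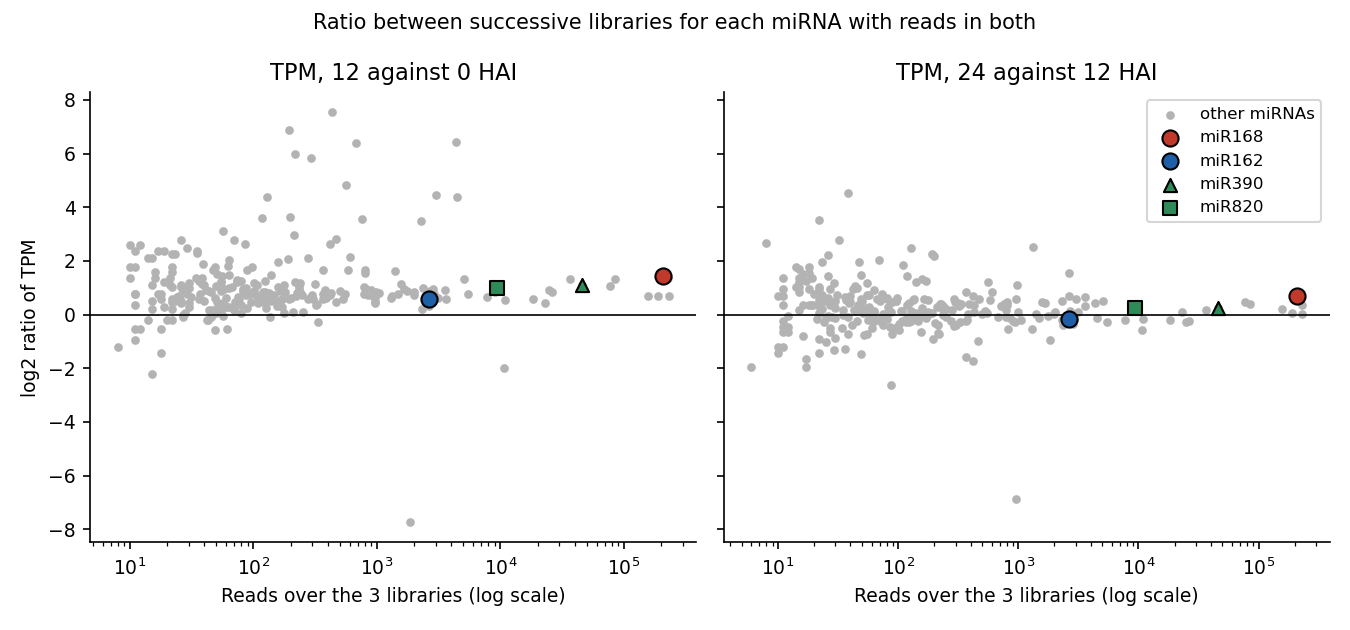
Log2 ratio of TPM against the reads over the 3 libraries (log scale) for each miRNA with reads in both libraries, for 12 against 0 HAI (left) and 24 against 12 HAI (right), with miR168, miR162, miR390 and miR820 marked. The miR168 point lies above 0 in both panels, at 1.45 and 0.71, and the miR162 point lies at 0.56 and -0.16.

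The profiles of the members over the 3 libraries, as TPM divided by the maximum, were compared with those of the 140 other miRNAs with at least 100 reads. The profile of osa-miR168a was 0.224, 0.612 and 1 at 0, 12 and 24 HAI. The nearest, at a Euclidean distance of 0.0824, was osa-miR166j (0.220, 0.694 and 1), which belongs to the family that regulates HD-ZIP III genes. It was followed by osa-miR171i at 0.102, osa-miR1874 at 0.111, and osa-miR528 and OsmiR-81 at 0.114 each. In this order the 5 had 66, 710, 100, 45 and 63 reads at 0 HAI. With shares in place of TPM only 3 of these 5 stayed, and osa-miR528 and OsmiR-81 gave way to osa-miR1867 and OsmiR-63. The profile of osa-miR162b was 0.677, 1 and 0.894, and its nearest profiles were closer. The first was OsmiR-202 at a distance of 0.0100, with 43, 74 and 52 reads, and the second osa-miR5150 at 0.0107, with 2800, 4734 and 3294 reads. The others were osa-miR1425 at 0.0304, OsmiR-17 at 0.0386 and osa-miR167abc at 0.0473, and on shares 4 of these 5 stayed, with OsmiR-62 in place of osa-miR167abc. Likeness over 3 points is a description, and the points share their libraries and depths. The order of the distances was not tested against counting error.

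Further miRNAs of the small RNA pathways were listed by role, and 2 besides the members are in the tables. These are miR390, which binds AGO7 and starts the production of trans-acting siRNAs, and miR820, which in rice regulates the DNA methyltransferase gene OsDRM2. The TPM of osa-miR390 was 410, 885 and 1040 at 0, 12 and 24 HAI, and that of osa-miR820abc was 89.5, 178 and 209. Both rose in TPM at each step, and from 0 to 24 HAI the ratio was 2.53 for osa-miR390 (limits 2.47–2.60) and 2.34 for osa-miR820abc (2.20–2.47), between the ratios of osa-miR168a and osa-miR162b. As a share of all miRNA reads osa-miR390 held 2.76%, 3.12% and 3.06%, and osa-miR820abc held 0.603%, 0.626% and 0.615%. From 0 to 24 HAI the share of osa-miR390 was 1.11-fold higher (adjusted p = 3.38e-13 in the exact test), and no difference was called for osa-miR820abc (ratio 1.02, limits 0.963–1.08, adjusted p = 0.691 in the exact test). All 4 miRNAs of the list were called higher at 24 than at 0 HAI in TPM, where 52.9% of all miRNAs were called higher, with a median log2 ratio of 1.28 against 0.96 over all miRNAs. On shares 2 were called higher and 1 lower, where 16.3% of all miRNAs were called higher and 20.8% lower.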

How the data were processed

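The read counts were made by the authors from small RNAs of 18–30 nt, which were filtered with FastQC, mapped with Bowtie to MSU 7.0, freed of rRNA, tRNA, snRNA and snoRNA matches and matched to miRBase 21, or predicted with miRDeep2. The TPM values were deposited beside the counts and are reads per 1000000 genome-mapped reads, which held in all 407 rows. The folding scores (MFE in kcal/mol) were deposited by the authors. The percent of G+C deposited for predicted precursors was not used, and G+C content was computed from the listed sequences.

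The 3 libraries were assigned to time points by their labels. The first of 2 identical copies of the table of known miRNAs was read, family names were filled down, and each mature sequence was counted once. A sequence without a name was left out. A family was called highly conserved where any of its sequences is of that class. Each pair of libraries was tested by an exact binomial test (two-sided, conditional on the reads of both), adjusted by Benjamini-Hochberg over all miRNAs with a read in the pair, with a threshold of 0.05. Without replicates, a quasi-likelihood test of edgeR could not be fitted. For ranks and medians of ratios, 3 reads replaced fewer reads in the earlier library. Odds ratios between the members have exact conditional limits, and those against other families, added after the data were seen, have 95% limits from the log odds ratio. The exact binomial test and its limits were tried on simulated Poisson counts without further variation between libraries. The other tests were not simulated. The tools were Python 3.11.15, scipy 1.17.1, pandas 2.3.3, numpy 2.4.6, matplotlib 3.10.9, RNAfold 2.7.2, R 4.3.3 and, for scaling factors only, DESeq2 1.42.0 and edgeR 4.0.16. The versions of FastQC and Bowtie were not given in the sources used here.

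The members and lists were chosen with earlier results of these data known. Named in the text are the members, miR390 and miR820, the 5 nearest profiles of each member among miRNAs with at least 100 reads, the neighbours by reads, and the families of the highly conserved class around the members, which were chosen after their values were seen. The sequences osa-miR396a and osa-miR396b were also named after their values were seen. The alternatives were 5 other scalings, 1 read added, other denominators of the shares, a 3-fold rule, shares in the 2-fold rule, and filters of at least 100 reads in all or 10 reads in a library.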

Additional observations from a re-analysis of the deposited data

How the results depend on the processing

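The ratios of osa-miR168a kept their direction and call under all 6 alternatives in each pair of libraries, with a ratio of 24 to 0 HAI from 1.93 to 4.47. For osa-miR162b the ratio of 24 to 0 HAI turned to lower, at 0.577 with the summed miRNA reads, 0.571 with the known miRNA reads, 0.636 with the miRNA reads without miR168, 0.659 with TMM factors of edgeR and 0.664 with size factors of DESeq2. In the same order, its ratio of 12 to 0 HAI turned to 0.772, 0.770, 0.806, 0.843 and 0.818. Its ratio of 24 to 12 HAI, not called in TPM, became a called decrease at 0.747, 0.742, 0.788, 0.782 and 0.811. These scalings rest on the miRNA reads, which were 1.48%, 2.84% and 3.40% of the mapped reads at 0, 12 and 24 HAI. On shares the lowest value of osa-miR168a, 0.512 of its maximum, no longer met the 2-fold rule. Under the summed miRNA reads, 47 miRNAs were called higher and 60 lower at 24 than at 0 HAI, 35 and 31 at 12 than at 0 HAI, and 35 and 52 at 24 than at 12 HAI, against 153 and 5, 140 and 2, and 58 and 24 in TPM. The share of osa-miR168a at 0, 12 and 24 HAI was 9.41%, 13.4% and 18.2% of the known miRNA reads, 5.04%, 7.65% and 10.8% with every row counted, and 22.9%, 31.4% and 40.2% without the 5 most abundant other miRNAs. The share of osa-miR162b was 0.134%, 0.110% and 0.0847% with every row counted and 0.259%, 0.208% and 0.164% without miR168. The order of the 3 libraries was the same in each case. No paired analysis was possible because each time point has 1 library. The RNA of the 4 plates was mixed, so variation between plates cannot be seen.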

Other observations

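Both members belong to the 44 miRNAs of 21 nt that start with T. At 0, 12 and 24 HAI, 67.3%, 68.8% and 70.4% of the miRNA reads came from them. Within this group osa-miR168a took 13.2% in the dry seed (95% interval by Wilson's method 13.04–13.34%), 18.5% after 12 h (18.3–18.6%) and 24.6% after 24 h (24.5–24.7%), whereas osa-miR162b took 0.350%, 0.265% and 0.193%. The 3 first bases that the members share, TCG, were found in 6 of the 289 miRNAs, all of them known. The other 4 are osa-miR820abc, osa-miR166l, osa-miR166j and osa-miR166e, so that 3 of the 4 miRNAs of the small RNA pathways listed above, all but osa-miR390, start with these bases. The starts were noticed after the sequences were seen and were not tested.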
